A study of Mus musculus with 16 samples.

Results

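The genes of 6 secreted chemokines, Ccl3, Ccl4, Ccl5, Xcl1, Cxcl9 and Cxcl10, were followed in donor T cells of a mouse model of ovarian graft-versus-host disease. They were taken by name from the 20972 genes with a named probe on the array. Where a gene had several probes, the one brightest on average across all 16 arrays stood for it. Cxcl9 had a second probe and the other 5 genes had 1 probe each. All 6 genes were well above background on all 16 arrays, so none depended on a group with high signal to be counted as measured.

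Chemokines are small secreted proteins that steer leukocytes by binding G-protein-coupled receptors. CCL3, CCL4 and CCL5 are released by activated and memory T cells and draw in further T cells and monocytes. XCL1 is made by activated CD8+ T cells and natural killer cells and draws in the cross-presenting dendritic cells that carry XCR1. CXCL9 and CXCL10 are induced by interferons, mainly in macrophages, dendritic cells and tissue cells, and recruit T cells through CXCR3. In graft-versus-host disease both families are known for bringing donor T cells into target organs.

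Every sample was RNA of donor T cells, labelled as female and of C57BL/6 background, after a haematopoietic stem cell transplant, and the recipients' ages and the time after transplant are not given in the sources used here. Allogeneic recipients gave CD8+ cells of the ovary (4 arrays) and of the spleen (3 arrays), and syngeneic recipients gave splenic CD8+ cells (3 arrays). For CD4+ cells each of these sources had 2 arrays. No group of ovarian cells after syngeneic transplantation was analysed here, so the ovary can be set only against the allogeneic spleen. Nothing in the labels ties replicates to different animals, and a p-value here therefore measures only how far these samples spread, which may be technical, with precision limited by the number of arrays. Each sample held up to 10000 cells sorted in succession, and in such bulk RNA fewer cells of a type and less RNA per cell cannot be told apart.

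Values are log2 signals relative to the 75th percentile of the array's probes, so that 0 is the 75th percentile itself and a difference of 1 is a doubling. They are called levels here, and the level of one probe is not comparable with that of another. The 75th percentile ranged from 67.6 to 450 units, and 41.8% to 59.4% of spots were well above background. The dimmest arrays were replicate 2 of the ovarian CD4 group (68.2 units) and replicate 2 of the allogeneic splenic CD4 group (67.6 units). The arrays lay on 2 slides with every group on both. All 8 T-cell markers examined (the CD3 chains, Cd2, Cd5, Lck and Lat among them) were well above background on every array. Cd8a lay between 4.71 and 5.82 on the arrays labelled CD8 and was well above background on 0 of the 6 arrays labelled CD4. Cd8b1 lay between 5.36 and 6.74 on the CD8 arrays and between -2.82 and 0.17 on the CD4 arrays. Unlike Cd8a, it was well above background on 1 of 2 ovarian CD4 arrays and on all splenic CD4 arrays. Cd4 lay between 1.42 and 2.45 on the CD8 arrays, against 4.48 to 5.56 on the CD4 arrays.

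The sorted fractions also held transcripts of other leukocytes. Of 12 macrophage and monocyte markers 11 were measured, and their summed signal, as a multiple of the 75th percentile, was 8.43 to 8.83 in ovarian CD8, 6.99 to 8.57 in allogeneic splenic CD8 and 6.87 to 10.3 in syngeneic splenic CD8 arrays. The same sum was 41.9 to 108 in ovarian CD4, 75.8 to 86.0 in allogeneic splenic CD4 and 21.0 to 36.9 in syngeneic splenic CD4 arrays. Every CD4 array thus lay above every CD8 array. In CD8 arrays the sum rested largely on Csf1r, with mean levels of 2.52, 2.33 and 2.74 in these 3 groups. The means of all other markers of the list were below 0 there. Between ovary and allogeneic spleen in CD8 cells, 9 of the 11 had a positive difference (median 0.59), as did 12326 of 22836 features. None of the 11 was called, and 4 had an unadjusted p under 0.05 by limma, as did 1897 features. Mertk, a receptor of tissue macrophages, was not well above background on any CD8 array. Of 10 dendritic cell markers, the 9 with a value on every array summed to 35.5 to 48.4 in ovarian CD8, 70.2 to 171 in allogeneic splenic CD8 and 202 to 625 in syngeneic splenic CD8 arrays. In CD4 arrays this sum was 156 to 199 in the ovary, 97.8 to 138 in the allogeneic spleen and 176 to 332 in the syngeneic spleen. It rested largely on H2-Ab1 and H2-Eb1, with mean levels of 6.96 and 7.36 in syngeneic splenic CD8 arrays. The sum therefore does not measure dendritic cells alone. B-cell markers (5 of 6 measured) summed to 1.19 to 2.16 in ovarian CD8, 2.52 to 4.50 in allogeneic splenic CD8, 1.47 to 1.69 in ovarian CD4 and 7.78 to 8.57 in allogeneic splenic CD4 arrays, against 13.3 to 21.0 in syngeneic CD8 and 28.5 to 61.0 in syngeneic CD4 arrays. Allogeneic splenic CD8 replicate 1 stood apart in Csf3r, listed as a neutrophil marker, at 1.25 against 7.71 to 8.56 on all other arrays. The listed neutrophil markers did not move together. S100a8 and S100a9 were well above background on no ovarian CD8 array, where Csf3r was 7.71 to 8.14.

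**Figure D1:**
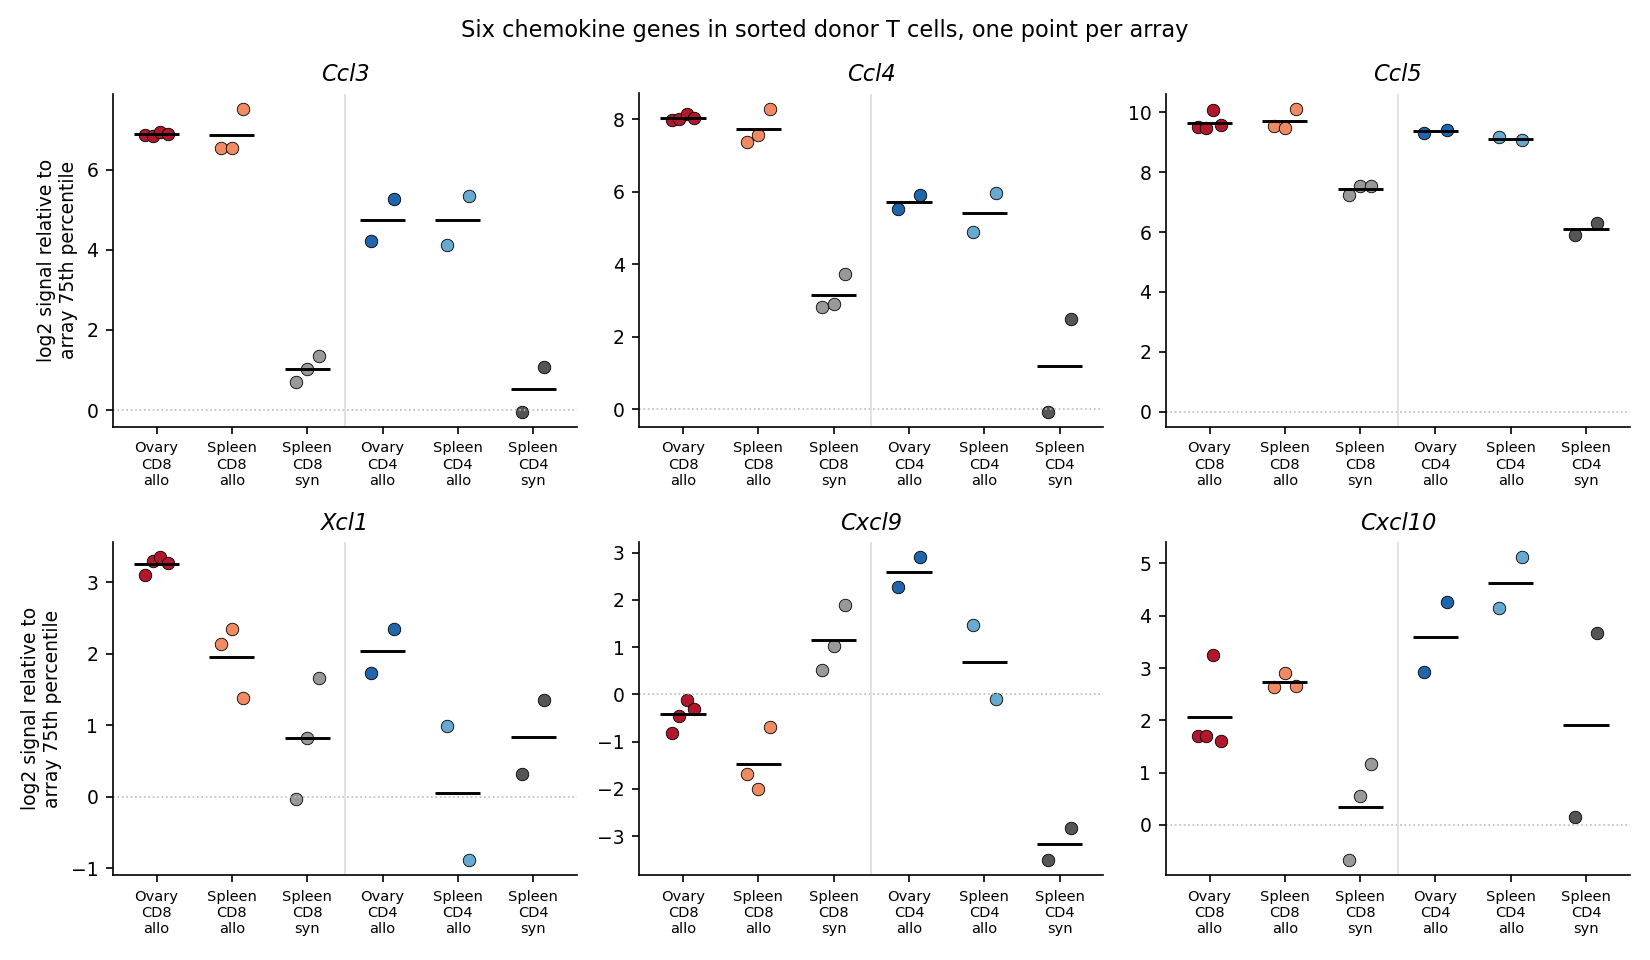
Level of each gene (log2 signal relative to the array's 75th percentile, vertical axis) by group, with 1 point per array and a bar at the group mean. Ccl3, Ccl4 and Ccl5 were higher in all 4 allogeneic groups than in both syngeneic ones, while Cxcl9 was lowest in syngeneic CD4 cells and highest in ovarian CD4 cells.

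Allogeneic against syngeneic spleen gave calls for most of the 6 genes, and ovary against spleen gave none. In CD8 cells of the allogeneic against the syngeneic spleen, 5 of 6 passed a limma test at a Benjamini-Hochberg adjusted p under 0.05, where 38.4% of the 22836 features did. Ccl3, Ccl4, Ccl5 and Cxcl10 were higher (18.8% of features were) and Cxcl9 was lower (19.6% were), and the arrays of the groups did not overlap for these 5 of 6 and for 53.5% of features. The members' median difference was 2.33 on the log2 scale, beside -0.16 over all features. In CD4 cells of the allogeneic against the syngeneic spleen, Ccl3, Ccl4, Ccl5 and Cxcl9 were called, all higher, where 16.1% of features were called, 10.4% higher and 5.7% lower. The arrays did not overlap for these 4 and Cxcl10, 5 of 6, and for 51.2% of features. The median of the 6 was 3.43 there, beside 0.04 over all features. Fitted on those 4 CD4 arrays alone, none of the 4 genes was called (adjusted p = 0.058 to 0.152). The difference between these 2 allogeneic against syngeneic differences, CD8 minus CD4, was called for 1 of 6, Cxcl9, and for 11.9% of features, with Cxcl9 negative, as were 6.67% of features.

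In allogeneic ovary, CD8 cells against CD4 cells gave 3 calls among the 6 genes, Ccl3 and Ccl4 higher and Cxcl9 lower, where 17.5% of features were called, 8.47% higher and 9.03% lower. The arrays did not overlap for 5 of 6, all but Cxcl10, and for 48% of features. In allogeneic spleen the same comparison gave 4 calls, Ccl3, Ccl4 and Xcl1 higher and Cxcl9 lower, where 29.4% of features were called, 15.2% higher and 14.3% lower, and the arrays did not overlap for 6 of 6 and for 49.3% of features. In syngeneic spleen it gave 2 calls, Ccl5 and Cxcl9, both higher in CD8, where 4.14% of features were called, 1.27% higher and 2.88% lower. The arrays did not overlap for Ccl4, Ccl5 and Cxcl9, 3 of 6, and for 34.3% of features. Ovary against spleen gave 0 of 6 in CD8 cells and 0 of 6 in CD4 cells by limma, where 0.53% of features in CD8 (0.263% higher, 0.267% lower) and 0.906% in CD4 cells (0.394% higher, 0.512% lower) were called. At an unadjusted p under 0.05, 2 of the 6 differed in each (Xcl1 and Cxcl9, higher in the ovary), as did 1897 of the 22836 features in CD8 and 3575 in CD4 cells. The difference between the 2 tissue effects was called for none of the 6 genes and for 0 of all features by limma, and 2539 features but none of the 6 had an unadjusted p under 0.05. The comparisons share groups (the allogeneic splenic cells enter 5 of the 7 comparisons between groups), so their counts are not independent of each other.

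**Figure D2:**
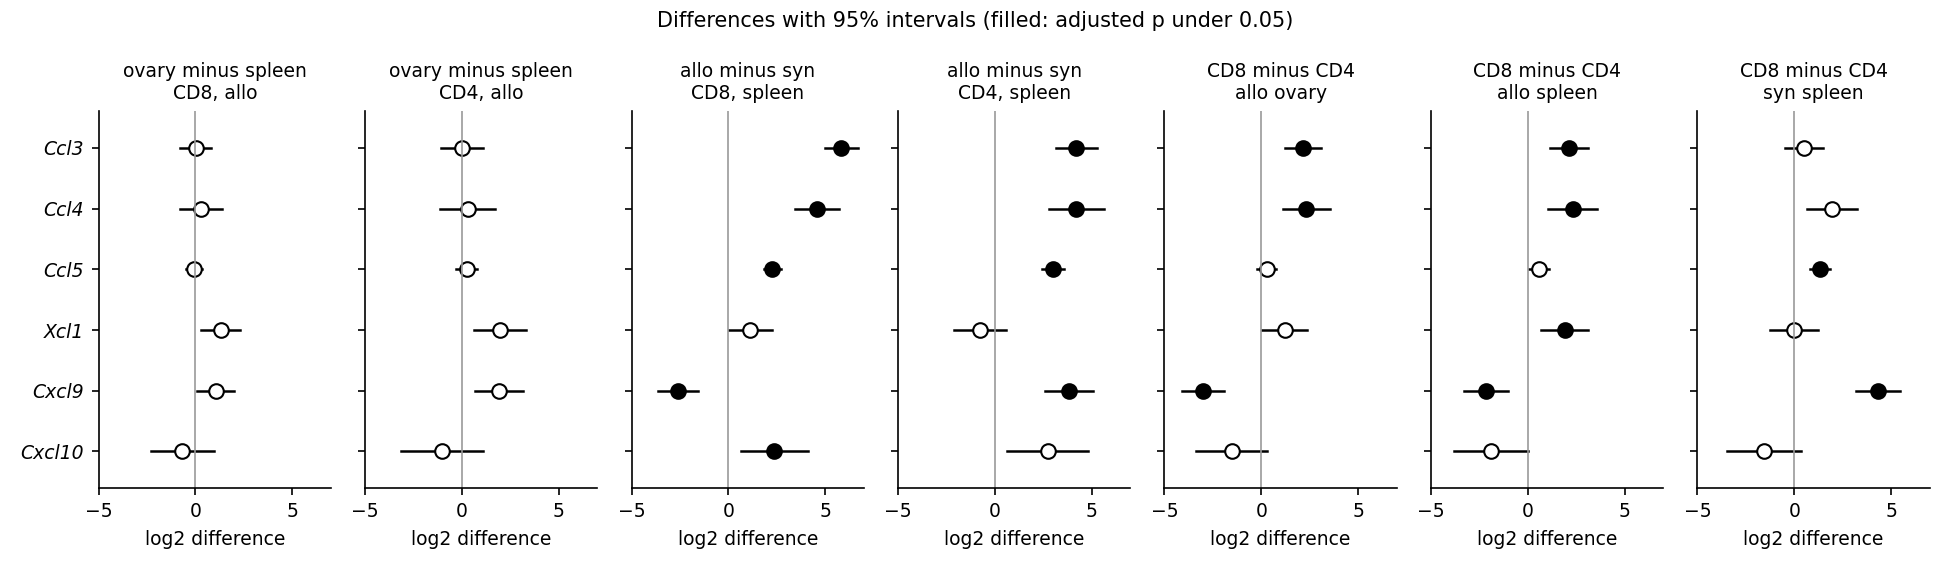
Log2 difference with its 95% interval (horizontal axis) for the 6 genes in the 7 comparisons between groups, with filled points for adjusted p under 0.05. Both comparisons of ovary with spleen hold no filled point, and Cxcl9 lies on opposite sides of 0 in the 2 comparisons of allogeneic with syngeneic spleen.

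**Figure D3:**
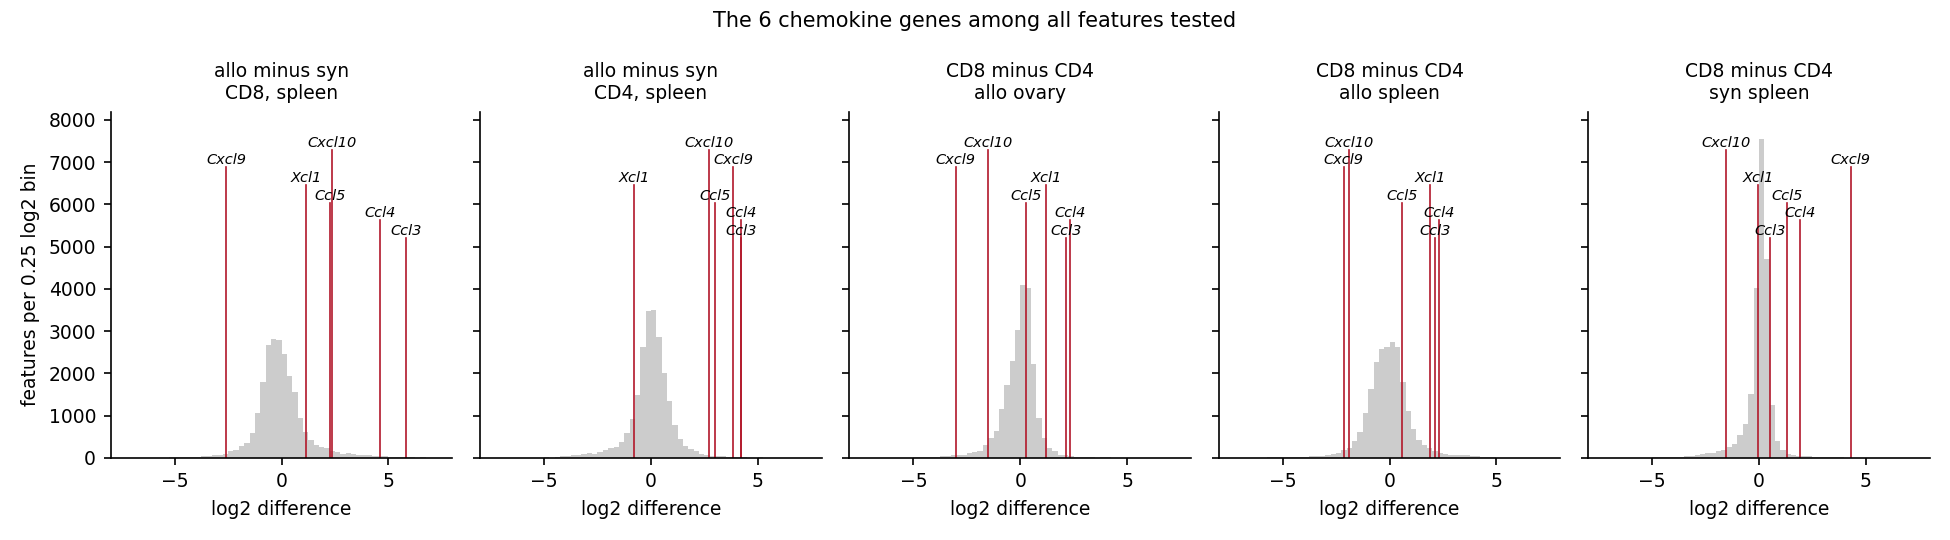
Histogram of the log2 differences of all 22836 features (grey, number per bin of 0.25) in 5 comparisons, with a red line at each of the 6 genes. In allogeneic against syngeneic spleen, Ccl3 and Ccl4 lie far to the right of the bulk of features in both subsets.

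Ccl3, a chemokine released by activated CD8+ T cells, had levels of 6.87, 6.83, 6.94 and 6.88 in ovarian CD8, 6.54, 6.55 and 7.52 in allogeneic splenic CD8, and 0.70, 1.02 and 1.35 in syngeneic splenic CD8 arrays. Its CD4 levels were 4.22 and 5.27 in the ovary, 4.12 and 5.35 in the allogeneic spleen, and -0.04 and 1.07 in the syngeneic spleen. Ovarian and allogeneic splenic arrays overlapped in both subsets, and every allogeneic array lay above every syngeneic array by more than 2 units. By group mean the order was ovarian CD8, allogeneic splenic CD8, ovarian CD4, allogeneic splenic CD4, syngeneic CD8 and syngeneic CD4. Of neighbours in that order, the first pair, the pair of allogeneic CD4 groups and the syngeneic pair overlapped. Ccl3 rose in allogeneic against syngeneic splenic CD8 cells by 5.84 ± 0.40 (log2 difference ± SE), which is 57.4-fold (adjusted p = 4.14e-07). Within each slide this difference was 5.84 and 6.33. In CD4 cells it rose by 4.22 ± 0.49, which is 18.6-fold (adjusted p = 0.00021), with 4.16 and 4.27 within each slide. The difference between these effects, 1.63 ± 0.63, was not called (adjusted p = 0.114). It became called with the slide as a block (1.86, adjusted p = 0.00894) and without allogeneic CD4 replicate 2 (2.24, adjusted p = 0.0399).

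Between subsets, Ccl3 was higher in CD8 than in CD4 cells of the allogeneic ovary by 2.14 ± 0.43, which is 4.40-fold (adjusted p = 0.00591), and of the allogeneic spleen by 2.13 ± 0.45, which is 4.39-fold (adjusted p = 0.00483). The CD8 and CD4 arrays did not overlap in either tissue. The ovarian call ended without ovarian CD4 replicate 1 (1.61, adjusted p = 0.0608). Within each slide, the ovarian difference of Ccl3 was 2.63 and 1.64, and that of the allogeneic spleen was 2.42 and 2.17. In syngeneic cells the subsets overlapped and differed by 0.51 ± 0.45 (adjusted p = 0.744). Between ovary and allogeneic spleen the difference was 0.01 ± 0.38 in CD8 cells, with a 95% interval of -0.80 to 0.83, and 0.01 ± 0.49 in CD4 cells, with an interval of -1.06 to 1.08.

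Ccl4, which like Ccl3 lies on chromosome 11, had levels of 7.98, 8.0, 8.16 and 8.04 in ovarian CD8, 7.39, 7.56 and 8.30 in allogeneic splenic CD8, and 2.82, 2.90 and 3.74 in syngeneic splenic CD8 arrays. The CD4 levels were 5.54 and 5.92 in the ovary, 4.89 and 5.97 in the allogeneic spleen, and -0.06 and 2.48 in the syngeneic spleen. The group means followed the same order as for Ccl3, and all syngeneic arrays lay below all allogeneic ones. The ovarian and allogeneic splenic arrays of each subset overlapped, the other neighbours did not, and the syngeneic CD4 pair spread most. Ccl4 rose in allogeneic against syngeneic spleen by 4.59 ± 0.53, which is 24.2-fold, in CD8 cells (adjusted p = 2.71e-05) and by 4.22 ± 0.65, which is 18.6-fold, in CD4 cells (adjusted p = 0.00115). Within each slide the differences of Ccl4 were 4.66 and 4.98 in CD8 cells, and 4.95 and 3.49 in CD4 cells.

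Ccl4 was also higher in CD8 than in CD4 cells after allogeneic transplantation, by 2.32 ± 0.56 in the ovary (adjusted p = 0.0153) and by 2.32 ± 0.59 in the spleen (adjusted p = 0.0126). The arrays of the subsets did not overlap in either tissue. Both calls rested on few CD4 arrays. The ovarian call ended without ovarian CD4 replicate 1 (2.13, adjusted p = 0.0804) or replicate 2 (2.5, adjusted p = 0.0739), and the splenic one without allogeneic CD4 replicate 1 (1.78, adjusted p = 0.0879). In the syngeneic spleen Ccl4 differed between CD8 and CD4 arrays by 1.94 ± 0.59, with no overlap, and was not called (adjusted p = 0.103). It was called there without syngeneic CD4 replicate 2 (3.21, adjusted p = 0.00518) and with the slide as a block (1.81, adjusted p = 0.0393). Between ovary and spleen the difference was 0.30 in both subsets, with intervals of -0.78 to 1.37 in CD8 and -1.11 to 1.71 in CD4 cells.

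Ccl5, a chemokine gene kept at high transcript level by effector and memory T cells, had levels of 9.49, 9.46, 10.08 and 9.56 in ovarian CD8, 9.55, 9.48 and 10.12 in allogeneic splenic CD8, and 7.24, 7.54 and 7.54 in syngeneic splenic CD8 arrays. Among CD4 arrays Ccl5 had 9.32 and 9.41 in the ovary, 9.16 and 9.07 in the allogeneic spleen, and 5.91 and 6.30 in the syngeneic spleen. All allogeneic arrays lay between 9.07 and 10.12. Below them came the syngeneic CD8 arrays and then the syngeneic CD4 arrays, with no overlap. Ccl5 rose in allogeneic against syngeneic spleen by 2.28 ± 0.21, which is 4.85-fold, in CD8 cells (adjusted p = 4.67e-06) and by 3.01 ± 0.26, which is 8.07-fold, in CD4 cells (adjusted p = 2.84e-05). Within each slide these were 2.28 and 2.58 in CD8 cells, and 3.25 and 2.78 in CD4 cells. The difference between the effects, -0.74 ± 0.33, was not called (adjusted p = 0.163), and its sign turned under quantile normalization (0.16).

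In the syngeneic spleen Ccl5 was higher in CD8 than in CD4 cells by 1.34 ± 0.24, which is 2.53-fold (adjusted p = 0.00581). The call ended without syngeneic CD4 replicate 1 (1.14, adjusted p = 0.0672). Within each slide the difference was 1.32 and 1.25. After allogeneic transplantation Ccl5 differed between CD8 and CD4 cells by 0.60 ± 0.24 in the spleen (adjusted p = 0.0719) and by 0.29 ± 0.22 in the ovary (adjusted p = 0.405). Both depended on the normalization, since quantile normalization gave 1.11 (adjusted p = 0.000224) in the spleen and 0.83 (adjusted p = 0.00162) in the ovary. The splenic difference was also called with the slide as a block (0.65, adjusted p = 0.0166). Between ovary and spleen Ccl5 differed by -0.07 in CD8 cells (interval -0.50 to 0.36) and by 0.25 in CD4 cells (interval -0.31 to 0.81), where the ovarian arrays lay above the splenic ones.

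Across the 16 arrays the levels of Ccl3 and Ccl4 correlated with Pearson r = 0.976, those of Ccl3 and Ccl5 with r = 0.943 and those of Ccl4 and Ccl5 with r = 0.947. These are descriptions over arrays that share 6 groups, so the group means set most of them. Of 7 natural killer cell markers, some of which activated CD8+ T cells also carry, 6 were measured. Their summed signal was 490 to 533 in ovarian CD8, 360 to 495 in allogeneic splenic CD8 and 73.6 to 89.0 in syngeneic splenic CD8 arrays. In CD4 arrays it was 200 to 204 in the ovary, 121 to 150 in the allogeneic spleen and 25.2 to 68.6 in the syngeneic spleen. Most of this sum was Nkg7, a granule gene shared with T cells, in all groups but syngeneic CD4. Its mean level was 8.98 in ovarian, 8.72 in allogeneic splenic and 6.14 in syngeneic splenic CD8 arrays. The markers did not move together between allogeneic and syngeneic spleen. In CD8 cells Nkg7 and Klre1 rose (2.59 ± 0.15 and 2.94 ± 0.40) and Tyrobp, an adaptor gene shared with myeloid cells, fell (-1.96 ± 0.61). In CD4 cells Nkg7 rose (3.38 ± 0.18), Klra8 fell (-1.43 ± 0.34) and Klrb1c was at least 7.79-fold lower. The part of such cells, or of the B cells that were lower in allogeneic spleen, in the Ccl3, Ccl4 and Ccl5 values was not tested.

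The 3 named features most like Ccl3 over the 16 arrays were Il20ra (Pearson r = 0.989), Oxsr1 (r = 0.987) and Tox (r = 0.986). Tox encodes a transcription factor of persistently stimulated T cells. For Ccl4 they were Heatr9 (r = 0.985), Pdgfb (r = 0.982) and Nr4a2 (r = 0.974), a nuclear receptor gene induced by T-cell receptor signals. For Ccl5 they were Cerkl (r = 0.97), Ms4a6d (r = 0.972) and Nab1 (r = 0.968). All were picked as the highest of the named features, and the arrays share groups, slides and scaling.

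Xcl1, the ligand of XCR1, had levels of 3.10, 3.30, 3.35 and 3.27 in ovarian CD8, 2.13, 2.35 and 1.38 in allogeneic splenic CD8, and -0.03, 0.82 and 1.66 in syngeneic splenic CD8 arrays. Among CD4 arrays Xcl1 had 1.73 and 2.34 in the ovary, 0.99 and -0.89 in the allogeneic spleen, and 0.32 and 1.35 in the syngeneic spleen. The ovarian CD8 arrays were the 4 highest and did not overlap any other group. All other groups overlapped at least one of their neighbours in the order ovarian CD4, allogeneic splenic CD8, syngeneic CD4, syngeneic CD8 and allogeneic splenic CD4. Ovary exceeded allogeneic spleen by 1.30 ± 0.47 in CD8 cells (adjusted p = 0.419) and by 1.99 ± 0.62 in CD4 cells (adjusted p = 0.162). In both subsets the ovarian arrays did not overlap the splenic ones, which held for 12.7% of features in CD8 and 33.7% in CD4 cells. The CD8 difference was called under estimated array weights (0.99, adjusted p = 0.017).

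In the allogeneic spleen Xcl1 was higher in CD8 than in CD4 cells by 1.90 ± 0.56, which is 3.74-fold (adjusted p = 0.0249). This rested on the dim array of allogeneic CD4 replicate 2, without which the difference was 0.96 (adjusted p = 0.273). The call also ended without allogeneic CD8 replicate 1 (1.81, adjusted p = 0.0689) or replicate 2 (1.71, adjusted p = 0.075). Within each slide it was 1.25 and 2.27. In the ovary Xcl1 differed by 1.22 ± 0.53 between CD8 and CD4 cells (adjusted p = 0.138) and in the syngeneic spleen by -0.02 ± 0.56 (adjusted p = 0.996). Allogeneic against syngeneic spleen gave 1.14 ± 0.50 in CD8 cells (adjusted p = 0.0924) and -0.78 ± 0.62 in CD4 cells (adjusted p = 0.433). The first was called without syngeneic CD8 replicate 3 (1.56, adjusted p = 0.0383), and the second turned positive without allogeneic CD4 replicate 2 (0.16). The features most like Xcl1 were Bex2 (r = 0.901), Mypop (r = 0.896) and Rhoa (r = 0.890).

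Cxcl9, an interferon-gamma-induced CXCR3 ligand, had levels of -0.81, -0.46, -0.12 and -0.31 in ovarian CD8, -1.69, -2.01 and -0.70 in allogeneic splenic CD8, and 0.51, 1.02 and 1.89 in syngeneic splenic CD8 arrays. Among CD4 arrays Cxcl9 had 2.28 and 2.90 in the ovary, 1.46 and -0.09 in the allogeneic spleen, and -3.51 and -2.82 in the syngeneic spleen. The order of the group means was ovarian CD4, syngeneic CD8, allogeneic splenic CD4, ovarian CD8, allogeneic splenic CD8 and syngeneic CD4. Syngeneic CD8 overlapped allogeneic splenic CD4, and the CD8 groups of ovary and allogeneic spleen overlapped. The second Cxcl9 probe followed the first with r = 0.968 over the 16 arrays.

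Between allogeneic and syngeneic spleen Cxcl9 differed in opposite directions in the 2 subsets. In CD8 cells it fell in allogeneic against syngeneic spleen by 2.60 ± 0.47 on the log2 scale, a level 6.08-fold lower (adjusted p = 0.000869). In CD4 cells it rose by 3.85 ± 0.57, which is 14.4-fold (adjusted p = 0.00096). In neither subset did the arrays overlap. Within each slide the differences of Cxcl9 were -2.36 and -2.15 in CD8 cells, and 4.97 and 2.73 in CD4 cells. The CD8 effect minus the CD4 effect was -6.46 ± 0.74 (adjusted p = 0.000417), with a 95% interval of -8.06 to -4.85. It was -7.34 and -4.88 within each slide, and -7.23 to -5.68 when each array of the 4 splenic groups was left out in turn.

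The sign of the Cxcl9 difference between subsets was also opposite in allogeneic and syngeneic cells. In the syngeneic spleen Cxcl9 was higher in CD8 than in CD4 cells by 4.31 ± 0.52, which is 19.8-fold (adjusted p = 0.000501). In the allogeneic ovary it was lower in CD8 than in CD4 cells by 8.08-fold, a log2 difference of -3.01 ± 0.49 (adjusted p = 0.00203), and in the allogeneic spleen by 4.44-fold, -2.15 ± 0.52 (adjusted p = 0.00998). The splenic call ended without allogeneic CD4 replicate 1 (-1.38, adjusted p = 0.0904) and with the second Cxcl9 probe (-1.11, adjusted p = 0.0827), and within each slide the difference was -3.31 and -0.61. Within each slide it was -2.91 and -3.11 in the ovary, and 4.03 and 4.27 in the syngeneic spleen. Ovary against allogeneic spleen gave 1.04 ± 0.44 in CD8 cells (adjusted p = 0.542) and 1.90 ± 0.57 in CD4 cells (adjusted p = 0.151). The CD8 difference was called under estimated array weights (1.39, adjusted p = 0.00283).

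Transcripts of other cell types moved beside Cxcl9. In splenic CD8 cells, 5 of the 10 dendritic cell markers fell in allogeneic against syngeneic arrays and none rose, Clec9a by 2.40 and Flt3 by 2.46 on the log2 scale among them. Of all features, 19.6% fell and 18.8% rose there. Clec9a marks cross-presenting dendritic cells. Of the 11 macrophage markers, 8 had a positive difference in the same comparison (median 0.55 over the 11), and none was called higher. Only 1, Lyz2, was called lower (-1.39 ± 0.42), with 1 of 3 allogeneic and 3 of 3 syngeneic arrays well above background. In splenic CD4 cells, the macrophage sums of 75.8 to 86.0 in allogeneic arrays lay above the 21.0 to 36.9 in syngeneic arrays, although only C1qb of the 11 markers rose past the threshold (1.89 ± 0.36). Dendritic cell markers went the other way from Cxcl9 there, with 3 of 10 lower in allogeneic CD4 arrays and none higher (Flt3, Clec9a and Cd209a, at least 6.24-fold, 5.62-fold and 8.12-fold lower). Of all features, 5.7% were lower and 10.4% higher in that comparison. In allogeneic spleen, where Cxcl9 was lower in CD8 than in CD4 cells, 4 of the 10 were higher in CD8 arrays and none lower, and in the ovary 1 was higher and 3 were lower. In both allogeneic tissues all 11 macrophage markers were lower in CD8 than in CD4 arrays. Of all features, 15.2% were higher and 14.3% lower in CD8 cells of the allogeneic spleen, and 8.47% and 9.03% in the ovary. In the syngeneic spleen 6 of the 11 macrophage markers were lower in CD8 arrays, where Cxcl9 was higher, while Clec9a was higher in CD8 arrays by 3.41 ± 0.79. Of all features, 2.88% were lower and 1.27% higher there. The part of these cells in the Cxcl9 values was not tested. The features most like Cxcl9 over the 16 arrays were Cttnbp2nl (r = 0.874), Krt73 (r = 0.871) and Aif1 (r = 0.849), the last a gene of macrophages.

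**Figure D4:**
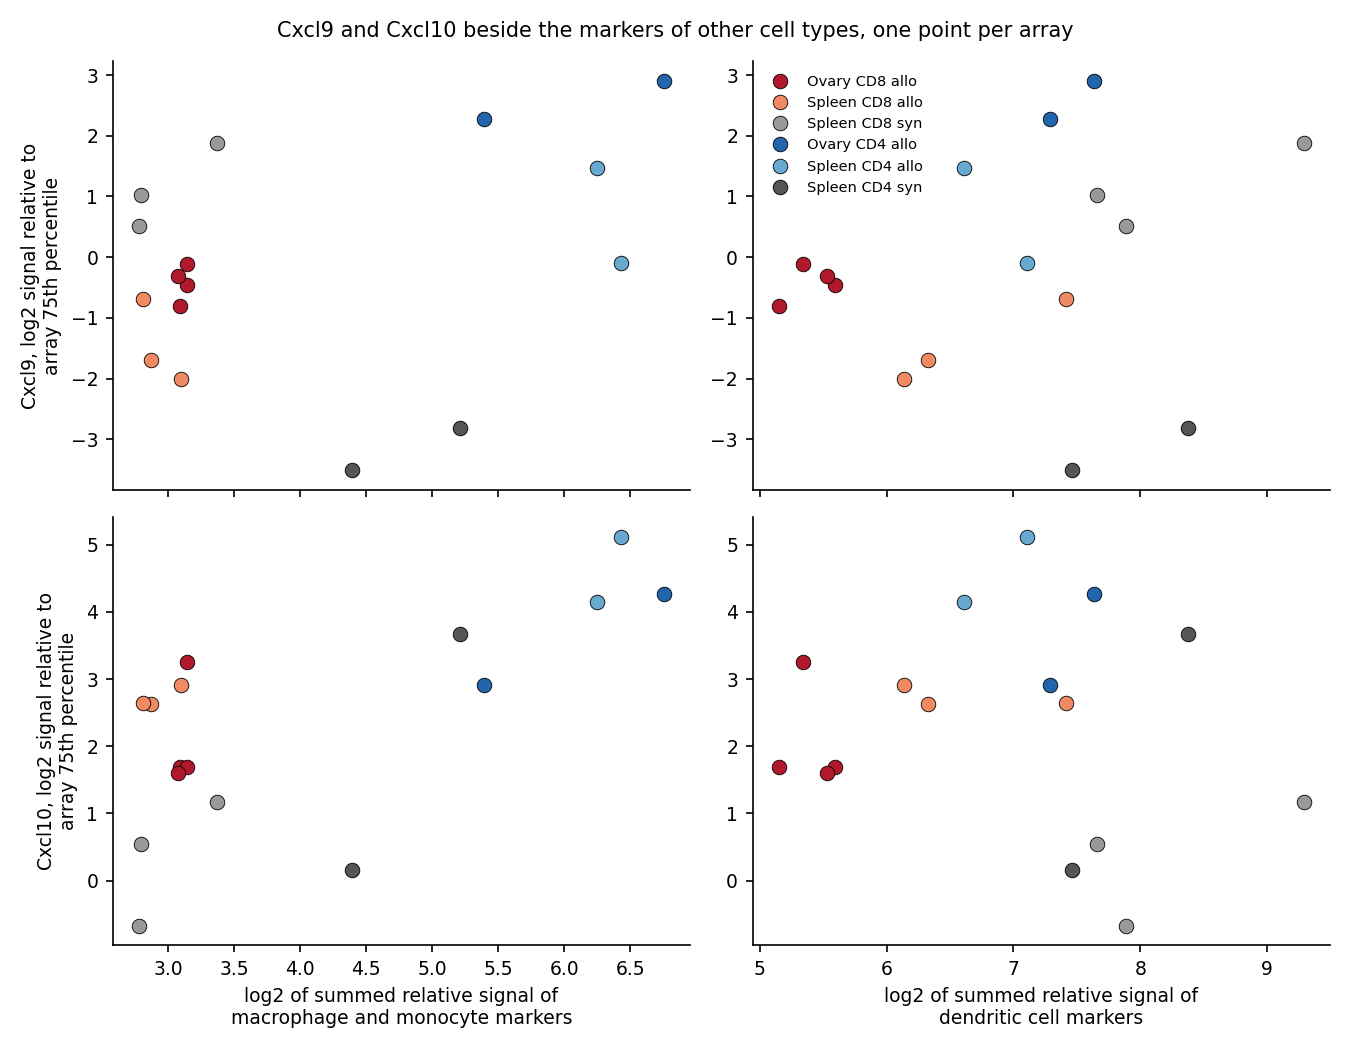
Levels of Cxcl9 (upper panels) and Cxcl10 (lower panels) against the log2 summed signal of macrophage and monocyte markers (left) and dendritic cell markers (right), 1 point per array. CD4 arrays lie right of all CD8 arrays on the macrophage axis, and the syngeneic CD4 arrays hold the lowest Cxcl9 there. The dendritic cell axis rests largely on H2-Ab1 and H2-Eb1, and the macrophage axis of the CD8 arrays on Csf1r.

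Cxcl10, the CXCR3 ligand induced by both type I and type II interferon, had levels of 1.70, 1.70, 3.25 and 1.61 in ovarian CD8, 2.63, 2.91 and 2.65 in allogeneic splenic CD8, and -0.67, 0.55 and 1.17 in syngeneic splenic CD8 arrays. In CD4 cells it had 2.92 and 4.27 in the ovary, 4.14 and 5.12 in the allogeneic spleen, and 0.15 and 3.66 in the syngeneic spleen. The syngeneic CD4 pair spread over 3 units and overlapped 4 of the other groups. Only ovarian CD4 and allogeneic splenic CD8 did not overlap among neighbours in the order of group means. Cxcl10 rose in allogeneic against syngeneic splenic CD8 cells by 2.38 ± 0.79, which is 5.21-fold (adjusted p = 0.0317), with no overlap of arrays. That call ended without any one of the 3 allogeneic CD8 arrays or without syngeneic CD8 replicate 1 or 2 (adjusted p = 0.0546 to 0.114), and within each slide the difference was 3.45 and 1.79.

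In CD4 cells the allogeneic against syngeneic difference of Cxcl10 was 2.72 ± 0.97 and was not called (adjusted p = 0.0763). It was called without syngeneic CD4 replicate 2 (4.48, adjusted p = 0.00697) and with the slide as a block (2.72, adjusted p = 0.0215), and within each slide it was 3.99 and 1.46. CD8 cells had lower values than CD4 cells by -1.53 ± 0.84 in the ovary, -1.90 ± 0.88 in the allogeneic spleen and -1.56 ± 0.88 in the syngeneic spleen, and none was called (adjusted p = 0.232, 0.122 and 0.49). The last became called without syngeneic CD4 replicate 1 (-3.32, adjusted p = 0.0471). Ovary against allogeneic spleen gave -0.67 ± 0.74 in CD8 cells, with an interval of -2.28 to 0.94, and -1.04 ± 0.97 in CD4 cells, with an interval of -3.15 to 1.07. Cxcl9 and Cxcl10 correlated with r = 0.158 over the 16 arrays. The features most like Cxcl10 were Klhl35 (r = 0.912), Spry1 (r = 0.907) and Areg (r = 0.906).

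Cxcl9 and Cxcl10 lie next to each other on chromosome 5, and their allogeneic against syngeneic differences in CD8 cells had opposite signs. Their promoters are therefore shown, as the 250 bases before the gene start in RefSeq (GRCm38.p6, minus strand, written 5′ to 3′), with matched motifs in capitals. The windows are chr5:92328080-92328329 for Cxcl9 and chr5:92348890-92349139 for Cxcl10.
Cxcl9: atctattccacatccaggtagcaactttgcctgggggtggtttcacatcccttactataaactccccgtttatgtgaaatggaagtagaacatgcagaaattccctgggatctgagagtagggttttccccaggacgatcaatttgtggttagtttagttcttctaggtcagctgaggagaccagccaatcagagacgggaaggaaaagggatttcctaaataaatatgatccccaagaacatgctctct
Cxcl10: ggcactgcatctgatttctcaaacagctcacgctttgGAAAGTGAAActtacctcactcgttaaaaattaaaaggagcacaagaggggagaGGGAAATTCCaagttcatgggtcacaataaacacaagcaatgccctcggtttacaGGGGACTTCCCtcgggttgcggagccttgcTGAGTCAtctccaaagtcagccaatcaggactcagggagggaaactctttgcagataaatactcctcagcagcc

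Both strands were searched for 4 motifs, the interferon-stimulated response element core (GAAA, any 2 bases, GAAA), the interferon-gamma-activated site TTCNNNGAA, the NF-kB consensus and the AP-1 site TGANTCA. In the Cxcl10 window the first matched as GAAAGTGAAA at 213 to 204 bases before the gene start. The NF-kB consensus matched at 159 to 150 bases and again in overlapping frames at 104 to 94 bases, and the AP-1 site matched as TGAGTCA at 74 to 68 bases. The Cxcl9 window held none of these exact letters, nor did the windows of Ccl3 and Xcl1, and no window of Ccl4 or Ccl5 was used here. Of 32851 promoter windows of this length, 2.98% held the first motif, 7.02% the second, 7.25% the NF-kB consensus and 6.75% the AP-1 site. A match is a description of these letters, and its absence says nothing of the factor.

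Of 7 receptors listed beside these ligands, 6 were measured, and Ccr1 was well above background on none of the 16 arrays. Cxcr3, the receptor of CXCL9 and CXCL10, rose in allogeneic against syngeneic spleen by 1.85 ± 0.28 in CD8 cells (adjusted p = 0.00028) and by 1.91 ± 0.35 in CD4 cells (adjusted p = 0.00338). In CD8 cells the Cxcr3 level was 6.38, 6.51 and 5.67 in the allogeneic spleen, and 4.07, 4.03 and 4.93 in the syngeneic spleen, with no overlap. Ccrl2, a non-signalling receptor that displays chemerin, rose by 4.00 ± 0.41 in CD8 and 1.62 ± 0.50 in CD4 cells, and the difference of 2.39 ± 0.65 between these effects was called (adjusted p = 0.0341).

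Ackr2, a scavenger that internalises inflammatory CC chemokines, moved the other way. It was well above background on no allogeneic array, against 2 of 3 syngeneic CD8 arrays and both syngeneic CD4 arrays. Against the syngeneic spleen it was at least 2.58-fold lower in allogeneic CD8 cells (adjusted p = 0.00751) and at least 4.40-fold lower in allogeneic CD4 cells (adjusted p = 0.00561), where the bound sets the dim group at the lowest signal called above background on its arrays. Ccr3 was lower in CD8 than in CD4 cells in all 3 sources, with differences of -1.46, -2.89 and -2.53 in the allogeneic ovary, the allogeneic spleen and the syngeneic spleen. In CD4 cells it was also lower in the ovary than in the spleen (-1.72 ± 0.31, adjusted p = 0.0288). Xcr1, the XCL1 receptor of dendritic cells, was higher in CD8 than in CD4 arrays, at least 1.77-fold in the allogeneic and at least 10.9-fold in the syngeneic spleen, and was well above background on no CD4 array.

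Of 28 genes listed as regulators of the 6 chemokines, 27 were measured. In allogeneic against syngeneic spleen 9 rose and 3 fell in CD8 cells, where 18.8% of all features rose and 19.6% fell. In CD4 cells 8 rose and 3 fell, where 10.4% of all features rose and 5.7% fell. The smallest p-values in CD8 cells belonged to Prdm1 (4.40 ± 0.25), a repressor gene of terminal effector cells, Ifngr2 (-3.85 ± 0.36), a chain of the interferon-gamma receptor, Eomes (1.80 ± 0.20) and Tbx21 (2.95 ± 0.33), both T-box factors of effector T cells. In CD4 cells they belonged to Eomes (3.11 ± 0.25), Prdm1 (2.32 ± 0.30), Ifngr1 (1.28 ± 0.18) and Ifngr2 (-2.84 ± 0.44). The allogeneic against syngeneic difference itself differed between the subsets for 6 of the 27 (11.9% of all features), among them Ifngr1 (-1.42 ± 0.23), Tnfrsf1a (1.75 ± 0.30) and Prdm1 (2.08 ± 0.39). Ifng itself, the inducer of Cxcl9, was added after its values were seen. Its level was 6.55, 6.58 and 7.64 in allogeneic splenic CD8 and 2.54, 2.94 and 4.04 in syngeneic splenic CD8 arrays, a difference of 3.75 ± 0.54 (adjusted p = 0.000184). In CD4 cells it was 5.36 and 6.13 in the allogeneic and 3.00 and 4.27 in the syngeneic spleen, a difference of 2.11 ± 0.67 whose adjusted p of 0.04998 was at the threshold.

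Between subsets 5 of the 27 regulators were higher and 5 lower in CD8 than in CD4 cells in each allogeneic tissue, where 17.5% of all features were called in the ovary and 29.4% in the spleen. Eomes was higher by 2.77 ± 0.22 in the ovary and 2.38 ± 0.23 in the allogeneic spleen. Tnfrsf1a, a TNF receptor gene, was higher by 1.39 ± 0.20 and 1.52 ± 0.21 there, and Runx3, a factor of the CD8 lineage, by 0.93 ± 0.17 and 0.85 ± 0.17. Ifngr2 was lower in CD8 cells of the ovary (-2.69 ± 0.38). In the syngeneic spleen 4 were higher and 1 lower in CD8 cells (4.14% of all features were called), with Eomes (3.69 ± 0.23), Ifngr1 (0.91 ± 0.16) and Dpp4 (1.02 ± 0.21), whose product trims CXCL10, among the higher and Prdm1 (-1.43 ± 0.28) the lower. Between ovary and spleen none of the 27 was called in CD8 cells by limma, with 4 at an unadjusted p under 0.05, and Irf7 alone in CD4 cells (-1.93 ± 0.40, adjusted p = 0.0435).

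Of 27 other chemokine genes 15 were measured, and some of them were called between tissues. Ccl7, Ccl12 and Ccl17 counted as measured only through ovarian groups, where they were high, while the 6 were detected on all arrays. Their calls therefore cannot be set against the absence of calls among the 6. In CD8 cells of the ovary against the spleen, Ccl17, a CCR4 ligand, was higher (adjusted p = 0.000322), well above background on 4 of 4 ovarian and 1 of 3 splenic arrays, and 2 CCR2 ligands were higher as well, Ccl12 (at least 4.54-fold) and Ccl7 (at least 2.67-fold). In CD4 cells the ovary exceeded the spleen at least 34.5-fold for Ccl7. Ccl12 was higher too (adjusted p = 0.00367), on 2 of 2 ovarian and 1 of 2 splenic arrays well above background, and Ccl25, the CCR9 ligand, was lower (-1.16 ± 0.21). Whether these tissue differences exceed those of the 6 genes was not tested. In allogeneic against syngeneic spleen, 2 of the 15 rose and 1 fell in CD8 cells, where 18.8% of all features rose and 19.6% fell. Ccl1, a CCR8 ligand, rose at least 10.7-fold and Ccl24, a CCR3 ligand, at least 3.53-fold. Cxcl16, the CXCR6 ligand, fell (-2.41 ± 0.71). In CD4 cells 5 rose and none fell, where 10.4% of all features rose and 5.7% fell. Among the 5 were Ccl24 (6.53 ± 0.65), Ccl12 (at least 3.57-fold) and Ccl8 (at least 25.7-fold). Ccl1 rose as well, well above background on 2 of 2 allogeneic and 1 of 2 syngeneic arrays (adjusted p = 0.00438).

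In both allogeneic tissues most called chemokines outside the 6 were lower in CD8 than in CD4 cells, 8 of 15 in the ovary with 1 higher, and 6 of 15 in the spleen with none higher, where 9.03% and 14.3% of all features were lower. In the ovary Ccl7 (-5.11 ± 0.61), Ccl12 (-4.02 ± 0.39), Ccl9 (-3.60 ± 0.74) and Ccl24 (-3.26 ± 0.57) had the smallest p-values. In the allogeneic spleen Ccl24 was lower (adjusted p = 0.000159), well above background on 2 of 3 CD8 and 2 of 2 CD4 arrays, and Ccl12 (at least 4.73-fold), Cxcl13, the CXCR5 ligand (at least 5.79-fold), and Cx3cl1, the CX3CR1 ligand (at least 2.63-fold), were lower as well. After syngeneic transplantation Ccl9 was lower in CD8 than in CD4 cells, well above background on 1 of 3 CD8 and 2 of 2 CD4 arrays, and Cxcl16 was higher, on 3 of 3 CD8 and 1 of 2 CD4 arrays. The macrophage sum was at most 10.3 in CD8 arrays, against 41.9 to 108 in ovarian and 75.8 to 86.0 in allogeneic splenic CD4 arrays, and its part in these differences was not tested.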

How the data were processed

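Per the file headers, the deposited scanner tables give a processed intensity per spot, from which Agilent Feature Extraction (version 11.5.1.1) had already removed background and spatial trend. The authors' log2 values in the series matrix matched the scanner's scaled values after centring each probe (Pearson r at least 0.9998), and it served as an alternative. The genome build behind the array design was not used for positions.

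Log2 processed signals were scaled to each array's 75th percentile. Of 55681 probes, 27656 matched a RefSeq symbol (GRCm38.p6). Probes detected above background throughout 1 or more groups (31122) were reduced to 22836 features, with the highest probe per gene. A limma 3.58.1 model (R 4.3.3) with 1 mean per group was fitted to 16 arrays (10 residual degrees of freedom), and p-values were Benjamini-Hochberg adjusted over all features and called under 0.05. The procedure was tested on simulated data. The chemokines, lists and tests were chosen with earlier results of these data known. Besides the 6 genes, receptors are named in every case, and up to 4 called regulators or other chemokines with the smallest p per comparison. Some genes that this rule names are not reported here. Alternatives were quantile and normexp normalization, the matrix, other filters, the mean of probes, slide and replicate blocks, each slide alone, only the groups compared, array weights, leaving out arrays and, added after seeing the data, the second Cxcl9 probe.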

Additional observations from a re-analysis of the deposited data

Results flagged for a closer look

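In ovarian CD8 cells, replicate 3 stood apart from the other 3 arrays for 2 of the 6 genes. Its Ccl5 level of 10.08 lay above 9.46 to 9.56 in the others, and its Cxcl10 level of 3.25 lay above 1.61 to 1.70. A gap of this size relative to the range arises by chance in about 1 in 20 sets, and 6 sets of 4 arrays were examined. The array lay on slide 2. The 75th percentile to which its signals were scaled was 190 units, against 311 to 343 in the others. The part of this scaling in the gaps was not tested. The Ifng level of replicate 3, 8.02, was also the highest of the 4, the others being 6.71 to 7.23.

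The allogeneic against syngeneic difference of Cxcl9 differed between the subsets by -6.46 (CD8 minus CD4), tested as an interaction in the fit.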

How the results depend on the processing

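Of the 6 genes, 0 and 0 were called between tissues (CD8, CD4), 5 and 4 between transplants (CD8, CD4), 3, 4 and 2 between subsets (ovary, allogeneic spleen, syngeneic spleen), and 0 and 1 for the tissue effect (ovary minus spleen) and the transplant effect (allogeneic minus syngeneic) compared between subsets. Leaving out each array in turn gave 0 to 0 in both tissue comparisons, 4 to 6 and 4 to 5 between transplants, 1 to 3, 2 to 4 and 2 to 3 between subsets, and 0 to 0 and 1 to 2 for the effects, a lone array being assumed to vary like the other groups. Slide 1 alone gave 1 call between tissues in CD4 cells, 5 between subsets in the ovary and 4 for the transplant effect. Slide 2 alone gave 3 between transplants in CD8 cells, 0 in CD4 cells, 0 between subsets in each of the 3 sources and 0 for the transplant effect. Each slide holds 8 arrays by construction. Only the groups compared gave 0 between transplants in CD4 cells, and 1 between subsets in the allogeneic and 1 in the syngeneic spleen, with fewer arrays by construction. Normexp gave 1 between tissues in CD4 cells. Array weights gave 2 between tissues in CD8 cells and 2 between subsets in the allogeneic spleen. The slide block and the fit without the 2 dimmest arrays each gave 2 for the transplant effect. The cause of these changes was not tested. The median of all features between transplants in CD8 cells was -0.16, and -0.04 with normexp.

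Signs turned only for uncalled differences. Between tissues in CD8 cells, Ccl3 was -0.0857 with quantile normalization, -0.11 with normexp, -0.11 with the slide block and -0.61 on slide 2, Ccl4 was -0.20 on slide 2 and Ccl5 was 0.0483 with normexp. Between tissues in CD4 cells, Ccl3 was -0.0527 with quantile normalization and -0.0766 on slide 2, and Ccl4 was -0.0559 on slide 2. Between transplants in CD4 cells, Xcl1 was 0.67 on slide 1 and 0.16 without the 2 dimmest arrays. For the tissue effect, Ccl3 was -0.0331 with quantile normalization, -0.12 with normexp, -0.0123 with the series matrix, -0.12 with the slide block, -0.53 on slide 2 and -0.0829 without the dimmest arrays. Ccl4 was 0.30 with normexp and 0.13 with weights, Cxcl10 was -0.10 with weights, Xcl1 was 0.22 on slide 1 and 0.56 without the dimmest arrays, and Cxcl9 was 0.40 and 0.22 there. For the transplant effect, Ccl5 was 0.16 with quantile normalization and 0.0691 with normexp, Ccl4 was -0.29 on slide 1, and Cxcl10 was 0.0578 with the slide block, 0.33 on slide 2 and 0.15 without the dimmest arrays. Leaving out single arrays gave, between tissues, Ccl3 -0.15 to 0.34 and Ccl5 -0.21 to 0.13 in CD8 cells, and Ccl3 -0.60 to 0.62 and Ccl4 -0.24 to 0.84 in CD4 cells. It gave Xcl1 -1.72 to 0.16 between transplants in CD4 cells, and Ccl3 -0.050 to 1.06, Xcl1 -0.53 to 0.50 and Cxcl10 -3.32 to 0.20 between subsets in the syngeneic spleen. For the tissue effect it gave Ccl3 -0.61 to 0.61, Ccl4 -0.54 to 0.54, Xcl1 -1.63 to 0.25 and Cxcl10 -0.30 to 1.05, and for the transplant effect Ccl4 -0.90 to 1.65 and Cxcl10 -2.10 to 1.41.

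With the replicate number as a block, Xcl1 between subsets in the allogeneic spleen lost its call (1.84, adjusted p = 0.0535), Cxcl10 gained one there (-2.20, adjusted p = 0.0365) and between transplants in CD4 cells (adjusted p = 0.0363), and the uncalled tissue effect of Ccl4 became 0.000117. Same-numbered arrays shared only a number: deviations of 25 such pairs on the same slide had a median r of 0.20 and of 8 on different slides -0.20, and 6 of 15 arrays correlated best with their own number.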
